A study of Mus musculus with 9 samples.

Results

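The 10 genes described here carry salt, bicarbonate and water across the colonocyte, the absorptive epithelial cell of the colon. They are the exchangers Slc26a3, Slc26a2 and Slc9a3, the carbonic anhydrases Car1 and Car4, the water channels Aqp8 and Aqp4, the sodium channel subunits Scnn1b and Scnn1g, and the anion channel Cftr. They were picked by name, with no measured value in the rule, and are 10 of the 21959 genes in the deposited count table. RNA was sequenced from the colon of wild-type mice in 3 groups of 3 libraries. The group Blank had no treatment, the group Model was given DSS (dextran sulfate sodium, a polymer used to injure the mouse colon lining), and the group CDs was given DSS and carbon dots, which are very small carbon particles, made from lotus node charcoal. The wild-type genotype was common to all 3 groups, and DSS to Model and CDs. The sources used here state no dose, route, schedule, age, sex or strain, and name the replicates as biological without naming animals, so p-values measure the spread between these libraries.

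In the colon, Slc9a3 takes up luminal sodium in exchange for protons, and Slc26a3 takes up luminal chloride in exchange for bicarbonate. Carbonic anhydrases make protons and bicarbonate from carbon dioxide and water, and water follows the absorbed salt, in part through aquaporins. The epithelial sodium channel, built from the products of Scnn1a, Scnn1b and Scnn1g, takes up sodium without an exchanged ion, mainly in the distal colon. The hormone aldosterone is known to raise its beta and gamma subunits there. Cftr is the cyclic AMP-regulated channel through which crypt cells release chloride and bicarbonate.

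The promoters of Scnn1g, Scnn1b and Cftr are printed because the first 2 genes lie next to each other and both rose with DSS, while Cftr had the lowest fold change of the 10 genes. The windows hold the 250 bases before the transcript start in RefSeq (GRCm38.p6), on the plus strand for all 3 genes. They lie at chr7:121864788-121865037 for Scnn1b, chr6:18170437-18170686 for Cftr and chr7:121734229-121734419 for Scnn1g, where only the 191 bases before the gene record are printed. Capitals mark CG pairs (CpG sites), where DNA can be methylated.
Scnn1g: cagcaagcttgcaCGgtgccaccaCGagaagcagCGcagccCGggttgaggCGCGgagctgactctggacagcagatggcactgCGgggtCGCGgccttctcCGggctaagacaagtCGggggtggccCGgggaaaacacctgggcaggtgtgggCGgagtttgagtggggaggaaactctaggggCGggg
Scnn1b: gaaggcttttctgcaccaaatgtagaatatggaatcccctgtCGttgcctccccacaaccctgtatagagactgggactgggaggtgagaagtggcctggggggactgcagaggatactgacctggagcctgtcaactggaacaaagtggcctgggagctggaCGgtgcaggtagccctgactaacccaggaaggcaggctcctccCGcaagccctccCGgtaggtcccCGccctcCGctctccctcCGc
Cftr: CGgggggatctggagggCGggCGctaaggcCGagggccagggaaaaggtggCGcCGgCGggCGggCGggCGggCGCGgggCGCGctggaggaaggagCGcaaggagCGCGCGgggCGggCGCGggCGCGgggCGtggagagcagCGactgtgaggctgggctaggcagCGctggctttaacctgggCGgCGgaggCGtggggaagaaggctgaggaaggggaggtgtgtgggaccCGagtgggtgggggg
The Cftr window held 30 CpG sites at 76.4% GC, the full Scnn1g window 16 at 65.2% and the Scnn1b window 7 at 60.8%, beside medians of 6 sites and 52.4% over all 32851 windows of the table. The windows of 7 members (all but Slc26a2, Car1 and Aqp4) were searched on both strands for 5 short motifs. Those of Slc26a3 and Slc9a3 lie inside the RefSeq gene record, so neither holds bases upstream of that record. TTTATG, bound by CDX factors, is in 10.8% of all windows and was found in that of Scnn1g, 7 bases before the start and outside the bases printed. GTTAAT, part of the HNF1 site, is in 6.43% of all windows and was found at 2 places in that of Slc26a3, 94 and 84 bases before the start. CAAAGTCCA (HNF4, 0.384% of all windows), AGAACA (part of the site of the mineralocorticoid and glucocorticoid receptors, 16.1%) and TGANTCA (AP-1, 6.75%) were in none of the 7. A match describes the letters of the window and is no evidence of binding.

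Libraries held 13868864 to 19940300 counted reads, and 3 reads, the limit that a count of 0 allows, came to 0.142 to 0.221 CPM (read counts scaled to library size, after TMM scaling; the limit covers counting error only). All 10 members passed the expression filter that left 14921 genes. Some libraries stood apart before any comparison. The summed level of 10 pancreatic acinar markers was 7356 CPM in Model 1, 62488 CPM in Model 3 and 274 CPM in CDs 1, against 6.04 to 19.1 CPM in the others, and that of 4 prostate markers was 1531 CPM in Blank 2 and 173 CPM in Blank 3, against 0.957 to 2.57 CPM elsewhere. Epithelial identity was present throughout, with none of 9 pan-epithelial markers (Epcam, Cdh1, keratins and others) at 0 in any library and none of 20 absorptive colonocyte markers at 0 either. Summed epithelial markers lay at 8167 to 9121 CPM in Blank, 4035 to 6938 CPM in Model and 4194 to 7942 CPM in CDs, and 4 of the 9 were called lower in Model than in Blank (edgeR). The colonocyte markers other than the 10 genes summed to 20684 to 25143 CPM in Blank, 13453 to 25048 CPM in Model and 14456 to 26097 CPM in CDs, and goblet cell markers to 22475 to 30192, 11345 to 29129 and 13513 to 28051 CPM. In Model against Blank, 6 of the 20 colonocyte markers were called lower and 1 higher (median log2 fold change -0.63). Of 7 goblet cell markers, 2 were called lower and 0 higher (median -0.72). Of all genes tested, 19.6% were called lower and 24.5% higher. Leukocyte markers went from 399 to 581 CPM in Blank to 1343 to 2193 CPM in Model and 1781 to 2642 CPM in CDs, fibroblast markers from 1759 to 2024 CPM to 5062 to 11381 and 5401 to 6256 CPM, and endothelial markers from 183 to 190 CPM to 403 to 536 and 376 to 481 CPM. Smooth muscle markers overlapped between groups (2724 to 3853, 2525 to 3807 and 2280 to 5618 CPM). Posterior Hox genes, which mark the distal gut, summed to 314 to 461 CPM in Blank, 149 to 250 CPM in Model and 132 to 344 CPM in CDs. Erythroid markers were at 81.6 to 409 CPM in Model against 17.8 to 35.6 CPM in the other groups, enteric glia markers at 14.4 to 23.6, 44.8 to 64.5 and 41.9 to 60.9 CPM, islet markers at 56 to 118, 206 to 250 and 141 to 152 CPM, and squamous markers at 1.09 to 7.94 CPM in all libraries. In pieces of tissue, fewer cells of a type and less RNA per cell cannot be told apart.

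Among the 10 genes, the group Model differed from Blank most in Cftr, which was 5.91-fold lower, and in Scnn1g, which was 5.34-fold higher. With them Aqp4 fell and Scnn1b rose, and the other 6 genes did not pass the threshold of an adjusted p under 0.05. Being called lower was common in this comparison (19.6% of all genes tested), as was being called higher (24.5%), so 2 of 10 in each direction is near the background. The median log2 fold change was -1.06 over the 10 genes and -0.03 over all genes tested. In 5 members all Model libraries lay below all Blank libraries, and in 2 all lay above, where 31% and 30% of all genes tested did so. No member was called between CDs and Model, and Cftr alone was called between CDs and Blank. The 3 comparisons share libraries, so their values are set side by side and not counted as separate support.

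**Figure D1:**
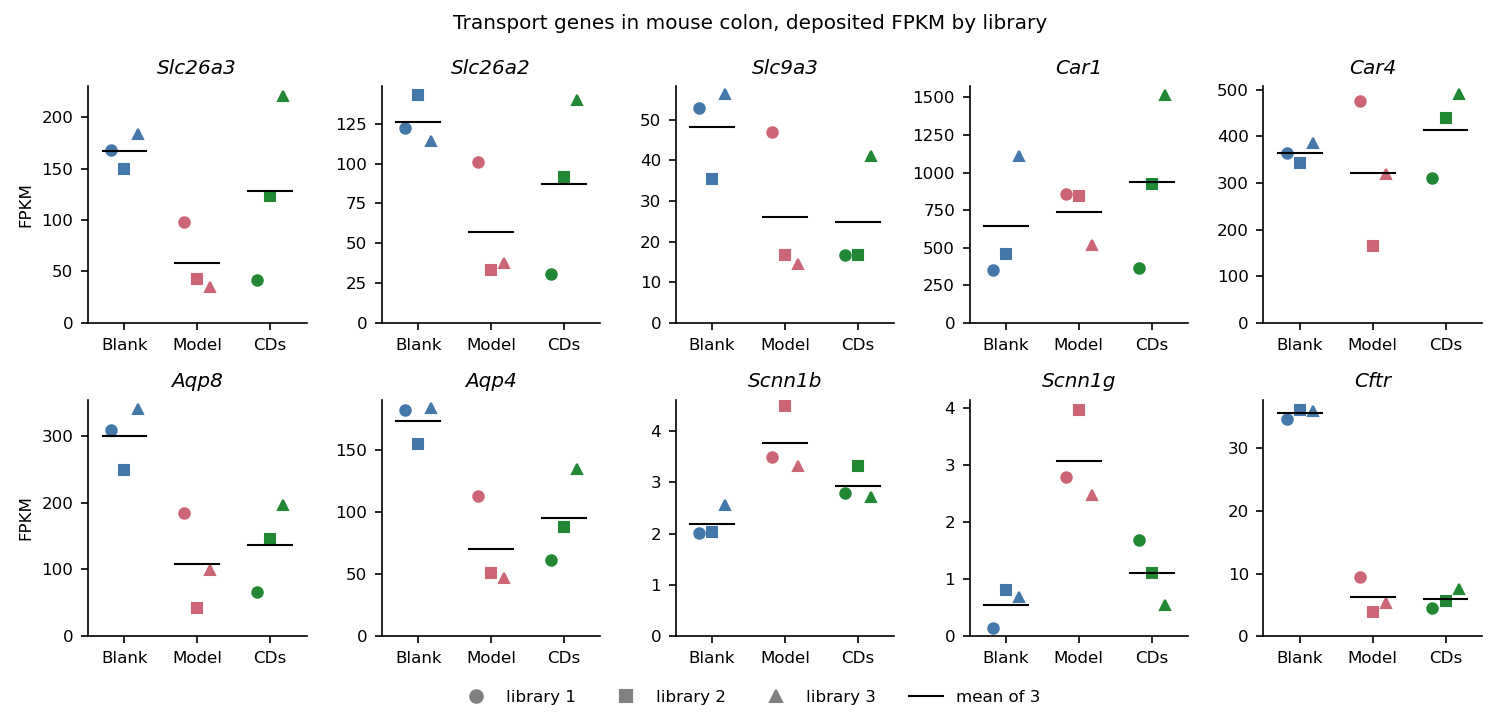
FPKM (reads scaled to gene length and library total, linear axis from 0, 1 panel per gene) of the 10 transport genes in Blank, Model and CDs; each point is 1 library (circle 1, square 2, triangle 3) and the bar is the mean of 3. Cftr drops from 34.7 to 36.2 FPKM in Blank to between 3.88 and 9.41 FPKM in all 6 DSS-treated libraries, while Scnn1g is highest in Model, and the CDs libraries of Slc26a3 spread from 41.4 to 221 FPKM.

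The 10 genes differed widely in level. Ranked by mean FPKM in Blank among 14921 genes, Car1 stood at 35, Car4 at 65 and Aqp8 at 85, followed by Aqp4 at 181, Slc26a3 at 192, Slc26a2 at 277, Slc9a3 at 887 and Cftr at 1268. The sodium channel subunits were far down, Scnn1b at 10133 and Scnn1g at 12875. Mean Blank levels were 642 ± 409 FPKM for Car1, 364 ± 21.2 for Car4, 299 ± 46.7 for Aqp8, 174 ± 16.2 for Aqp4 and 167 ± 16.9 for Slc26a3 (SD, n = 3), so the last 2 did not differ beyond their spread, and Car1 overlapped Car4. In Model the rank of Cftr went to 6849 and in CDs to 7167, while Car1 stayed at 39 and 21.

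Slc26a3 (ENSMUSG00000001225, chromosome 12, 31440870 to 31523916, plus strand) encodes the apical chloride-bicarbonate exchanger whose loss causes chloride-losing diarrhoea. Its level was 168, 150 and 184 FPKM in Blank 1 to 3, 98.2, 42.7 and 34.7 FPKM in Model 1 to 3, and 41.4, 123 and 221 FPKM in CDs 1 to 3. All Model libraries lay below all Blank libraries, while the CDs libraries overlapped both other groups. The Model versus Blank log2 fold change was -1.56 ± 0.59 (SE, 95% interval -2.90 to -0.22, edgeR adjusted p = 0.0586), so the interval lay below 0 but the adjusted p missed the threshold. It passed in 7 of 19 alternative settings, among them the fits without Model 1 (-2.18, adjusted p = 0.0218), CDs 1 (0.0149) or CDs 3 (0.0376). CDs against Model gave 1.14 (interval -0.19 to 2.47, adjusted p = 0.936) and CDs against Blank -0.42 (-1.74 to 0.89, adjusted p = 0.592).

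Slc26a2 (ENSMUSG00000034320, chromosome 18, 61325991 to 61344684, minus strand) encodes a sulfate transporter that feeds the sulfation of mucins and proteoglycans. It was at 122, 143 and 114 FPKM in Blank, 101, 32.9 and 37.6 FPKM in Model, and 30.7, 91.6 and 140 FPKM in CDs. Model 1 lay just under the lowest Blank library, and CDs 1 was the lowest of all 9. None of the 3 comparisons passed: Model against Blank gave -1.19 ± 0.58 (interval -2.51 to 0.14, edgeR adjusted p = 0.126), CDs against Model 0.61 (-0.70 to 1.92) and CDs against Blank -0.58 (-1.89 to 0.73). Model against Blank passed without Model 1 (-1.90, adjusted p = 0.0263) or CDs 1 (0.0496). Over the 9 libraries Slc26a3 and Slc26a2 were the pair of members with the most alike pattern, with a root mean square difference of 0.276 between their centred log2 CPM values.

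Slc9a3 (ENSMUSG00000036123, chromosome 13, 74269576 to 74317561, plus strand) encodes the apical sodium-proton exchanger NHE3. Its level was 52.9, 35.4 and 56.2 FPKM in Blank, 46.9, 16.6 and 14.6 FPKM in Model, and 16.8, 16.8 and 41.1 FPKM in CDs. One library of each DSS-treated group, Model 1 and CDs 3, lay within the Blank range, and the other 4 lay between 14.6 and 16.8 FPKM. Model against Blank gave -0.93 ± 0.52 (interval -2.11 to 0.25, edgeR adjusted p = 0.171), CDs against Blank -1.01 ± 0.52 (-2.19 to 0.17, adjusted p = 0.157) and CDs against Model -0.08 (-1.25 to 1.10). Without Model 1 the Model value was -1.69 (adjusted p = 0.0156), and without CDs 3 the CDs value passed against Blank (adjusted p = 0.0435).

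Car1 and Car4 did not follow the exchangers. Car1 (ENSMUSG00000027556, chromosome 3, 14831276 to 14873428, minus strand), a cytosolic carbonic anhydrase of colonocytes, was at 354, 461 and 1110 FPKM in Blank, 858, 843 and 520 FPKM in Model, and 366, 924 and 1518 FPKM in CDs. The Blank libraries alone differed 3.13-fold, the second widest Blank spread of the 10 genes after Scnn1g. The interval was accordingly wide, with Model against Blank at 0.15 ± 0.56 (-1.11 to 1.41, edgeR adjusted p = 0.843), CDs against Model at 0.35 (-0.91 to 1.61) and CDs against Blank at 0.50 (-0.76 to 1.77). Car4 (ENSMUSG00000000805, chromosome 11, 84848612 to 84856870, plus strand), which is anchored to the outer face of the apical membrane, was at 364, 343 and 385 FPKM in Blank, 477, 165 and 320 FPKM in Model, and 311, 440 and 492 FPKM in CDs. Model libraries lay on both sides of the Blank range, and the log2 fold change was -0.22 ± 0.36 (interval -1.04 to 0.60, edgeR adjusted p = 0.639). CDs against Model gave 0.34 (-0.47 to 1.16) and CDs against Blank 0.12 (-0.69 to 0.94). Neither carbonic anhydrase passed in the fit of all 9 libraries. Without Model 1, Model 3 and CDs 1, only Model 2 was left in Model, the lowest Model library for Car4 at 165 FPKM. In that fit Car4 gave -1.26 in Model against Blank, 1.59 in CDs against Model and 0.32 in CDs against Blank.

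Aqp8 (ENSMUSG00000030762, chromosome 7, 123061514 to 123067227, plus strand), a water channel of the absorptive epithelium, was at 309, 248 and 339 FPKM in Blank, 184, 41.9 and 98.8 FPKM in Model, and 66.6, 145 and 196 FPKM in CDs. All 6 DSS-treated libraries lay below the lowest Blank library. The Model versus Blank change of -1.50 ± 0.55 (interval -2.74 to -0.26) nevertheless had an edgeR adjusted p of 0.0518, just outside the threshold, and CDs against Blank gave -1.19 ± 0.54 (-2.42 to 0.04, adjusted p = 0.117). The Model value passed in 7 of 19 alternatives, among them the fits without Model 1 (-2.13, adjusted p = 0.0149) or CDs 1 (0.0299). CDs against Model gave 0.31 (-0.90 to 1.53).

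Aqp4 (ENSMUSG00000024411, chromosome 18, 15522553 to 15544039, minus strand), a water channel of the basolateral membrane, was at 182, 155 and 184 FPKM in Blank, 113, 51.0 and 46.9 FPKM in Model, and 61.7, 88.3 and 135 FPKM in CDs. As for Aqp8, every DSS-treated library lay below every Blank library. Aqp4 fell 2.56-fold in Model, with a log2 fold change of -1.35 ± 0.40 (interval -2.26 to -0.45, edgeR adjusted p = 0.0242). The call was lost when Blank 1 (adjusted p = 0.0605), Blank 3 (0.0587), Model 2 (0.0811) or Model 3 (0.0835) was left out, and it held in 13 of 19 alternatives. CDs against Blank gave -0.93 ± 0.40 (interval -1.83 to -0.03, adjusted p = 0.0960) and CDs against Model 0.42 (-0.47 to 1.31).

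Scnn1g (ENSMUSG00000000216, chromosome 7, 121333702 to 121367698, plus strand) encodes the gamma subunit of the epithelial sodium channel. It was low in untreated colon, at 0.145, 0.817 and 0.699 FPKM from 7, 37 and 29 reads, and reached 2.79, 3.96 and 2.47 FPKM in Model. In CDs it was at 1.69, 1.11 and 0.554 FPKM. Every Model library lay above every library of both other groups, and CDs overlapped Blank. The rise in Model was 5.34-fold, a log2 fold change of 2.42 ± 0.54 (interval 1.19 to 3.64, edgeR adjusted p = 0.00762). It passed in all 19 alternatives, though these include fits with only Model 2 in Model or only Blank 1 in Blank. On Blank 1 alone, without Blank 2 and Blank 3, it was 4.31, and on log2(FPKM + 1) values it was 1.40.

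The beta subunit rose with it. Scnn1b (ENSMUSG00000030873, chromosome 7, 121464261 to 121517737, plus strand) was at 2.01, 2.03 and 2.55 FPKM in Blank, 3.50, 4.49 and 3.32 FPKM in Model, and 2.79, 3.31 and 2.71 FPKM in CDs. The groups Blank and Model did not overlap, nor did Model and CDs, although CDs 2 lay just under Model 3. The rise in Model was 1.65-fold, 0.72 ± 0.17 on the log2 scale (interval 0.33 to 1.12, edgeR adjusted p = 0.0102), and it passed in 18 of 19 alternatives, all but the fit without Blank 2 and Blank 3 (adjusted p = 0.0859). Scnn1b lies 96.6 kb from Scnn1g with no gene of the table between them. From start to end, introns included, Scnn1b overlaps Cog7 on the opposite strand over 39152 bases. The overlap of exons was not examined and the library protocol marks no strand, so how far reads of the 2 genes mix is not known. Cog7 gave -0.36 in Model against Blank (edgeR adjusted p = 0.0259).

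Against these 2 subunits the alpha subunit went the other way. Scnn1a, which was chosen for mention after its values were seen, was at 41.2, 35.5 and 44.0 FPKM in Blank, 27.2, 13.7 and 15.3 FPKM in Model, and 13.8, 25.2 and 36.6 FPKM in CDs. It fell in Model by 1.15 ± 0.38 on the log2 scale (edgeR adjusted p = 0.0372), a call that held in 10 of 19 alternatives and was lost without Blank 1, 2 or 3, Model 2, Model 3 or CDs 2 (adjusted p = 0.0558 to 0.118) and when scaled to epithelial markers (-0.38, adjusted p = 0.195). Scnn1g came to 0.0725, 0.402 and 0.275 of the Scnn1b level in Blank, 0.798, 0.880 and 0.742 in Model, and 0.606, 0.334 and 0.205 in CDs (ratios of FPKM). Scnn1a came to 20.5, 17.5 and 17.3 times the Scnn1b level in Blank, 7.79, 3.05 and 4.62 times in Model, and 4.94, 7.59 and 13.5 times in CDs. The gamma-to-beta ratio was thus higher in every Model library than in every Blank library, and the alpha-to-beta ratio lower, with no test made of either.

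**Figure D2:**
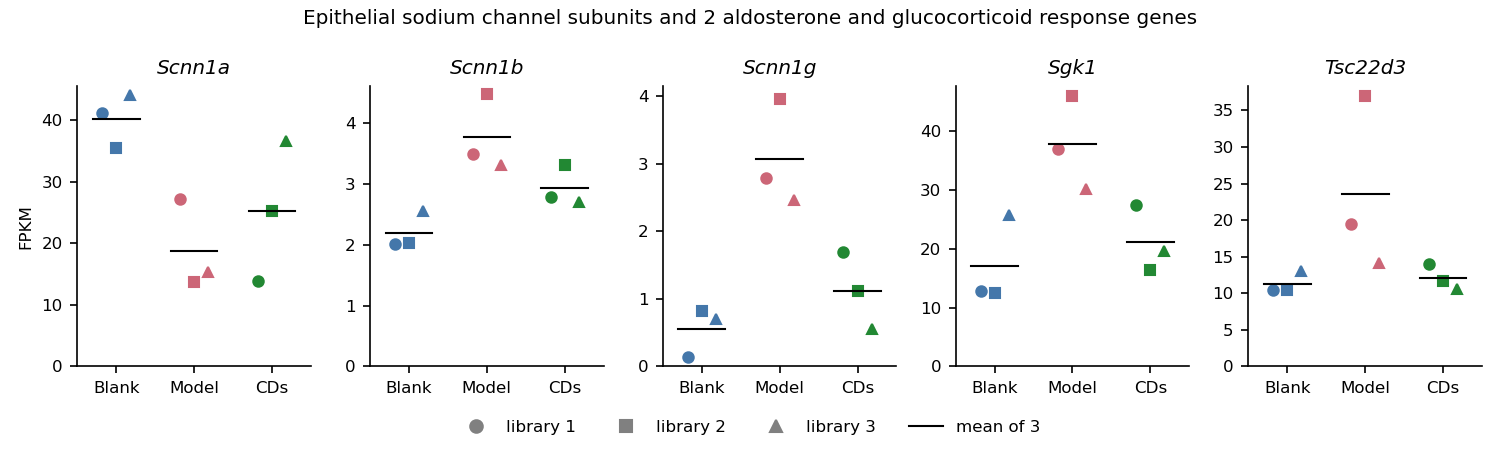
FPKM (linear axis from 0) of the 3 epithelial sodium channel subunits and of Sgk1 and Tsc22d3 in Blank, Model and CDs; each point is 1 library (circle 1, square 2, triangle 3) and the bar the mean of 3. Scnn1b, Scnn1g, Sgk1 and Tsc22d3 are highest in Model, and Scnn1a is highest in Blank, at 35.5 to 44.0 FPKM.

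Cftr (ENSMUSG00000041301, chromosome 6, 18170686 to 18322767, plus strand) had the tightest Blank values of the 10 genes, at 34.7, 36.2 and 36.0 FPKM. It was at 9.41, 3.88 and 5.41 FPKM in Model and at 4.59, 5.67 and 7.51 FPKM in CDs. The 6 DSS-treated libraries lay far below Blank and among themselves overlapped fully. Cftr fell 5.91-fold in Model (-2.56 ± 0.34, interval -3.32 to -1.80, edgeR adjusted p = 7.22e-04) and 6.30-fold in CDs (-2.65 ± 0.34, interval -3.42 to -1.89, edgeR adjusted p = 8.89e-04), and both calls held in all 19 alternatives. CDs against Model gave -0.09 ± 0.32 (interval -0.82 to 0.63, adjusted p = 0.980), an interval that lay within 1 log2 unit on each side of 0. Slc26a3, the absorptive counterpart, was 4.83, 4.14 and 5.10 times the Cftr level in Blank, 10.4, 11.0 and 6.42 times in Model, and 9.01, 21.6 and 29.5 times in CDs (ratios of FPKM, not tested), higher in all 6 DSS-treated libraries.

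**Figure D3:**
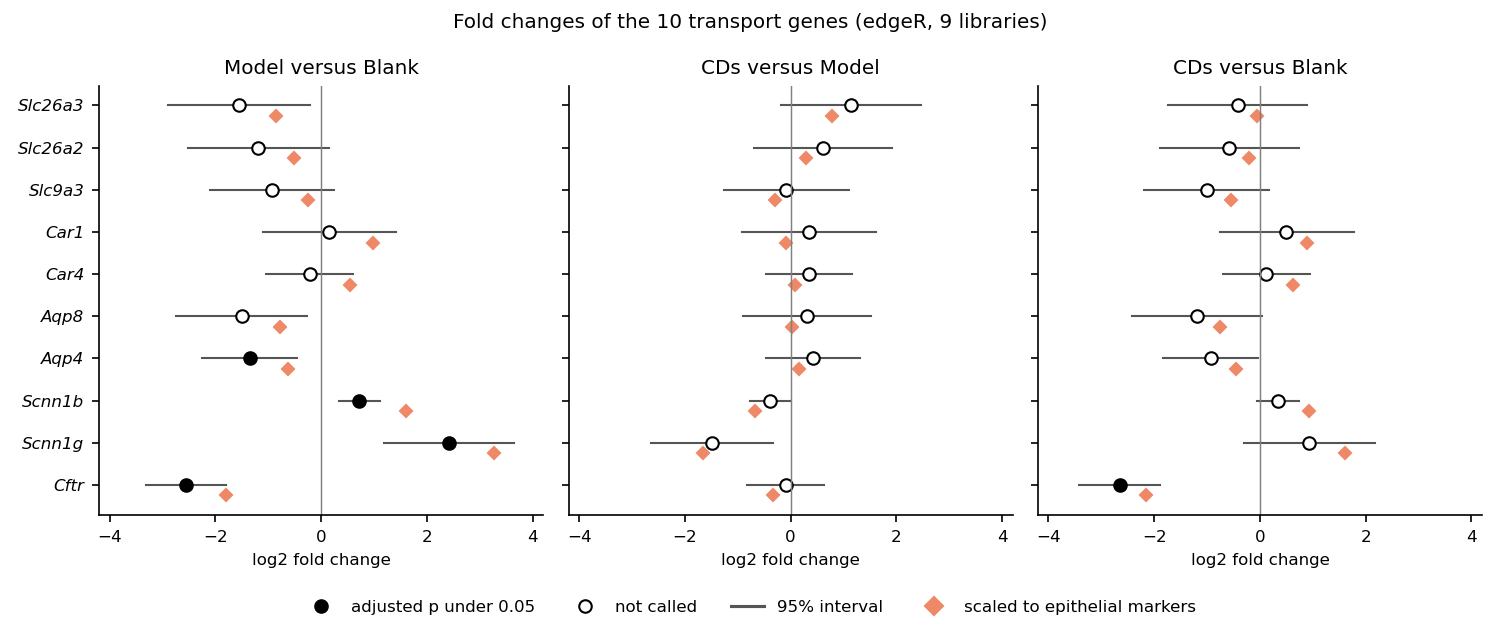
Log2 fold changes of the 10 transport genes (edgeR, horizontal axis) for the 3 comparisons, with Model against Blank on the left, CDs against Model in the middle and CDs against Blank on the right; circles are the estimates (filled where the adjusted p was under 0.05), lines the 95% intervals, and diamonds the estimates when libraries were scaled to epithelial markers. Filled circles stand at 2.42 for Scnn1g, 0.72 for Scnn1b, -1.35 for Aqp4 and -2.56 for Cftr on the left, at none in the middle, and at -2.65 for Cftr on the right.

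No member was called between CDs and Model, where edgeR called 0% of the 14921 genes, the smallest adjusted p being 0.891, and DESeq2 called 5 genes higher and 45 lower, none of them a member. At an unadjusted p under 0.05 the count was 788 of all genes (5.28%) and 1 of the 10, Scnn1g. In CDs Scnn1g was 2.81-fold lower than in Model (-1.49 ± 0.51, interval -2.64 to -0.34, edgeR adjusted p = 0.907), lower in 3 of 3 libraries. Scnn1b likewise lay lower in 3 of 3 (-0.38 ± 0.17, interval -0.76 to 0.01, adjusted p = 0.936). They were the only 2 of the 10 genes without overlap between CDs and Model, both lower, where 4.77% of all genes were lower without overlap and 3.22% higher. The fitted values of 6 members were higher in CDs than in Model and those of 4 lower, with a median of 0.33, and all genes had a median of 0.02. The interval was wide for some members, reaching 2.47 for Slc26a3 and 1.92 for Slc26a2, and narrower for others, such as Cftr (-0.82 to 0.63) and Scnn1b.

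Against Blank, 1 member was called lower in CDs (Cftr) and none higher, where 13.8% of all genes were called lower and 21.8% higher. Cftr, Aqp8 and Aqp4 were lower in CDs without overlap, and none was higher, where 25.9% and 28.2% of all genes did so. The median log2 fold change of the 10 genes was -0.50, beside 0.01 for all genes. Scnn1g gave 0.93 ± 0.55 (interval -0.31 to 2.17, edgeR adjusted p = 0.210) and Scnn1b 0.35 ± 0.17 (-0.05 to 0.74, adjusted p = 0.146).

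The members varied with the library inside each DSS-treated group. By CPM, CDs 1 was the lowest CDs library for 9 of the 10 genes, all but Scnn1g, for which it was the highest (by FPKM, which has no TMM scaling, CDs 3 was the lowest for Scnn1b, and CDs 1 and CDs 2 were level for Slc9a3). By CPM, CDs 3 was the highest CDs library for 8 genes and the lowest for Scnn1g. Model 1 was the highest Model library for 8 genes, all but Scnn1b and Scnn1g, for which Model 2 was the highest. The summed epithelial markers were also highest in Model 1 and CDs 3 and lowest in CDs 1. They came to 6938, 4206 and 4035 CPM in Model 1 to 3 and 4194, 6373 and 7942 CPM in CDs 1 to 3. Their lowest Model library was Model 3, which by CPM was the lowest for 6 members, while Model 2 was the lowest for 4. Together the 10 genes took 0.592%, 0.582% and 0.700% of all reads in Blank, 0.523%, 0.259% and 0.255% in Model, and 0.234%, 0.486% and 0.744% in CDs. Without Model 1, 6 members were called lower in Model than in Blank (Slc26a3, Slc26a2, Slc9a3, Aqp8, Aqp4 and Cftr), where 3316 of 15151 genes were called lower. Without Model 1, Model 3 and CDs 1, which held pancreatic transcripts, Model 2 was the only Model library and was assumed to vary like the others. For Slc26a3, Slc26a2, Slc9a3, Car4, Aqp8, Aqp4 and Cftr, Model 2 against Blank gave -2.10, -2.07, -1.66, -1.26, -2.96, -1.90 and -3.33. In the same order CDs 2 and CDs 3 against Model 2 gave 2.11, 1.91, 0.90, 1.59, 2.12, 1.22 and 0.86. Car1, Scnn1b and Scnn1g gave 0.27, 0.91 and 2.72 against Blank, and 0.63, -0.49 and -2.15 for CDs against Model 2. By CPM, Model 2 was the lowest Model library for Slc26a2, Car4, Aqp8 and Cftr. The part that the content of single libraries plays in these values was not tested.

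Set against epithelial content, Cftr remained lower and the sodium channel subunits higher. Per 1000 counts of the 9 epithelial markers, Cftr had 30.6, 35.7 and 32.2 counts in Blank, 10.6, 6.77 and 10.7 in Model, and 7.84, 6.87 and 7.49 in CDs. Aqp4 had 129, 123 and 132 counts in Blank, 102, 71.5 and 74.4 in Model, and 84.6, 85.8 and 108 in CDs. Both stayed below Blank in all 6 DSS-treated libraries, and so did Aqp8, with 49.8 to 61.8 counts in Blank, 14.9 to 42.3 in Model and 23.2 to 39.9 in CDs. Slc26a3 had 121, 121 and 135 counts in Blank, 91.0, 61.2 and 56.3 in Model, and 57.9, 122 and 181 in CDs, so CDs 2 and CDs 3 were at or above the lowest Blank library. Car4 had 81.2 to 87.1 counts in Blank, 136, 73.2 and 160 in Model, and 124 to 135 in CDs, above Blank in 5 of the 6 DSS-treated libraries. Scnn1g had 0.0493, 0.311 and 0.241 counts in Blank against 1.21, 2.66 and 1.88 in Model.

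A fit with libraries scaled to these markers moved the median log2 fold change of all genes to 0.836 in Model against Blank, and 96.3% of its calls there were higher, beside 55.6% with TMM scaling (93.3% beside 61.3% in CDs against Blank, median 0.604). In that fit Model against Blank gave -1.81 for Cftr (edgeR adjusted p = 3.54e-04), 1.60 for Scnn1b (0.00411) and 3.26 for Scnn1g (0.00196), and these 3 calls held. Being called higher was common there, with 7021 of the 14921 genes tested called higher and 267 called lower. Aqp4 at -0.63 (adjusted p = 0.0601), Slc26a3 at -0.85 and Aqp8 at -0.78 were not called, and Car4 turned from -0.22 to 0.54. Relative to the shifted median, Cftr, Aqp4, Slc26a3, Aqp8, Slc26a2 (-0.51), Slc9a3 (-0.25) and Car4 lay below. Car1 (0.98) and both subunits lay above. CDs against Blank gave -2.15 for Cftr, and no member was called in CDs against Model, where the median moved to -0.244.

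**Figure D4:**
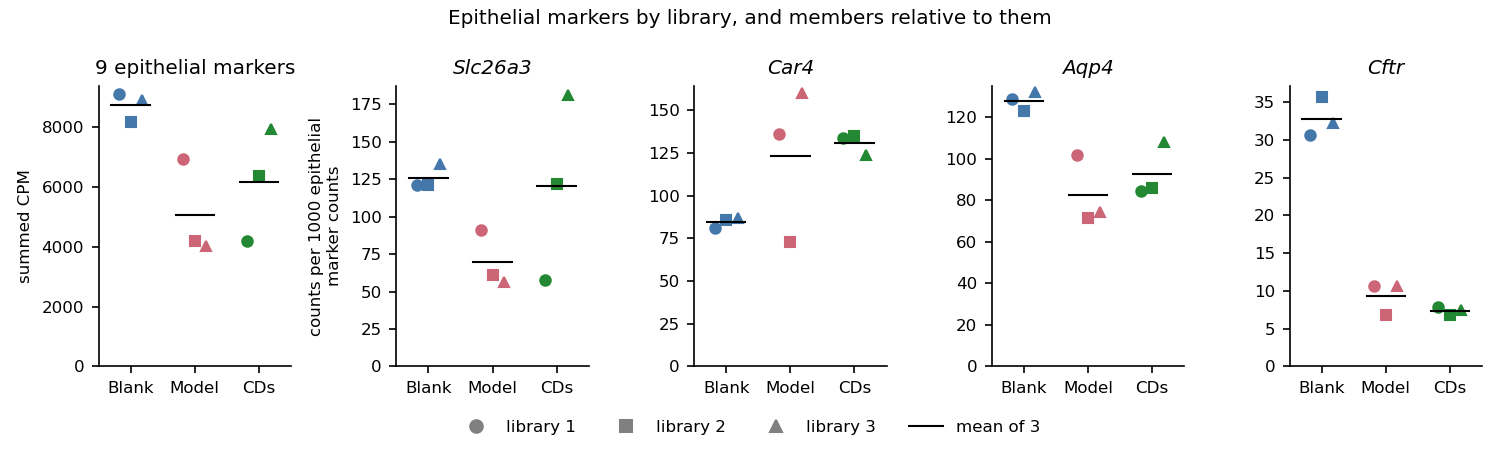
Summed level of 9 epithelial markers (left, CPM) and counts of 4 members per 1000 counts of these markers (linear axes from 0) in Blank, Model and CDs; each point is 1 library (circle 1, square 2, triangle 3) and the bar the mean of 3. Cftr lies at 30.6 to 35.7 in Blank and at 6.77 to 10.7 in the DSS-treated libraries, while CDs 2 and CDs 3 reach 122 and 181 for Slc26a3.

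Of 61 other epithelial transport genes in 8 lists, 55 were tested, and 11 were called higher and 19 lower in Model than in Blank, with a median of -0.31. Of all genes tested, 24.5% were called higher there and 19.6% lower. None was called in CDs against Model, and 7 were higher and 12 lower in CDs than in Blank (21.8% and 13.8% of all genes). The counts in Model against Blank became 6 higher and 13 lower without Blank 1 (3105 and 1842 of 15103 genes) and 6 and 17 without Blank 2 (2940 and 1770 of 15108). They were 8 and 12 without Model 2 (2907 and 1568 of 15091) and 8 and 11 without Model 3 (2927 and 1478 of 15098). When scaled to epithelial markers they were 17 and 5, where 7021 of 14921 genes were called higher and 267 lower. Without both Blank 2 and Blank 3 only Blank 1 is left, so no count is given. The lists were fixed by role, and the 2 genes with the smallest p in each are named. Ano1, Kcnq1, Kcne3, Aqp9, Car5b and Atp1b3 stayed called in all 19 alternatives, and Slc12a2, Pdzd3, Slc9a8, Slc4a2, Aqp11, Fxyd3, Nedd4l and Prss8 in 17 or 18, with no loss from a single library.

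In the chloride secretion list, 2 of 7 genes were lower and none higher. Slc12a2, the basolateral cotransporter that loads chloride into the cell, was at 56.4 to 63.0 FPKM in Blank, 20.3 to 28.6 in Model and 16.7 to 24.2 in CDs, and fell in Model by 1.32 ± 0.17 on the log2 scale (edgeR adjusted p = 7.27e-04). When scaled to epithelial markers it gave -0.49 (adjusted p = 0.205) and was not called. Ano1, a calcium-activated chloride channel, fell by 1.85 ± 0.32 (adjusted p = 0.00230). Of 4 potassium channels, which keep the driving force for chloride exit, 3 fell and 1 rose. Kcnq1 fell by 2.17 ± 0.30 (adjusted p = 8.72e-04) and its partner subunit Kcne3 by 2.27 ± 0.34 (adjusted p = 0.00135), the latter from 111 to 121 FPKM in Blank to 13.4 to 39.5 in Model and 30.3 to 34.8 in CDs. CDs against Model gave 0.36 ± 0.33 for Kcne3 and 0.11 ± 0.29 for Kcnq1, both uncalled.

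Among sodium-proton exchangers and their scaffolds, 5 of 9 tested were lower and 1 higher. Pdzd3, a scaffold protein that regulates Slc9a3, fell by 1.67 ± 0.39 (edgeR adjusted p = 0.00925), and Slc9a8, another sodium-proton exchanger, fell by 0.66 ± 0.15 (adjusted p = 0.00776), though it stood at 0.16 when scaled to epithelial markers. Of 12 bicarbonate carriers and other carbonic anhydrases, 4 were lower and 2 higher. Slc4a2, a basolateral chloride-bicarbonate exchanger, fell by 0.97 ± 0.23 (adjusted p = 0.00916), with -0.15 (adjusted p = 0.587) when scaled to epithelial markers, and Car5b, a mitochondrial carbonic anhydrase, rose by 1.63 ± 0.22 (adjusted p = 8.07e-04). Of 4 other anion exchangers Slc26a6 alone rose (0.93 ± 0.31, adjusted p = 0.0369), from 0.326 to 0.508 FPKM to 0.533 to 0.991 FPKM, a call lost without Blank 1, Blank 2, Model 2, Model 3 or CDs 2 (adjusted p = 0.0536 to 0.142), and Slc26a11 had 0.36 ± 0.16 (adjusted p = 0.0934). Of 4 other aquaporins, Aqp9, known from leukocytes and liver, rose by 2.99 ± 0.31 (adjusted p = 3.40e-04) and reached 0.608 to 0.677 FPKM in Model, and Aqp11 fell by 1.58 ± 0.36 (adjusted p = 0.00852), with -0.76 (adjusted p = 0.0850) when scaled to epithelial markers. Of 6 pump genes Atp1b3, a sodium pump beta subunit, rose by 1.01 ± 0.16 (adjusted p = 0.00153) and Fxyd3, a pump regulator, fell by 1.56 ± 0.26 (adjusted p = 0.00208), with -0.74 (adjusted p = 0.144) under that scaling.

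The list around the epithelial sodium channel split, with 4 of 9 higher and 3 lower. Nedd4l, the ubiquitin ligase that removes the channel from the membrane, rose by 0.55 ± 0.11 (edgeR adjusted p = 0.00476), and Prss8, a protease that activates the channel, fell by 1.03 ± 0.22 (adjusted p = 0.00677), with -0.21 (adjusted p = 0.542) when scaled to epithelial markers. Nr3c2, Sgk1 and Tsc22d3 were picked after their values were seen. Nr3c2, the mineralocorticoid receptor, fell by 1.32 ± 0.41 (adjusted p = 0.0279, 0.0644 without Blank 1, 0.0748 without Blank 2, 0.0857 without Model 2 and 0.0961 without Model 3). When scaled to epithelial markers it gave -0.59 (adjusted p = 0.0748). Sgk1, a kinase induced by aldosterone and glucocorticoids that protects the channel, was at 12.9, 12.5 and 25.8 FPKM in Blank, 37.0, 46.0 and 30.2 FPKM in Model, and 27.5, 16.4 and 19.7 FPKM in CDs, a rise of 1.09 ± 0.29 in Model (adjusted p = 0.0161, 0.0556 without Blank 1, 0.0563 without Blank 2 and 0.0536 without Model 2). Tsc22d3, another steroid-induced gene, was at 10.5, 10.4 and 13.1 FPKM in Blank, 19.5, 37.0 and 14.1 FPKM in Model, and 14.0, 11.7 and 10.6 FPKM in CDs, a rise of 0.98 ± 0.28 (adjusted p = 0.0208, 0.0637 without Blank 1 and 0.0674 without Blank 2). Sgk1 and Tsc22d3 both lay lower in all CDs libraries than in all Model libraries, as Scnn1b and Scnn1g did, where 4.77% of all genes did so. CDs against Model gave -0.86 ± 0.29 for Sgk1 and -0.97 ± 0.28 for Tsc22d3, without a call (edgeR adjusted p = 0.904 and 0.891). For Tsc22d3, CDs 1 (14.0 FPKM) lay just under Model 3 (14.1 FPKM), and Model 2 stood highest at 37.0 FPKM. Whether these genes change together was not tested.

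**Figure D5:**
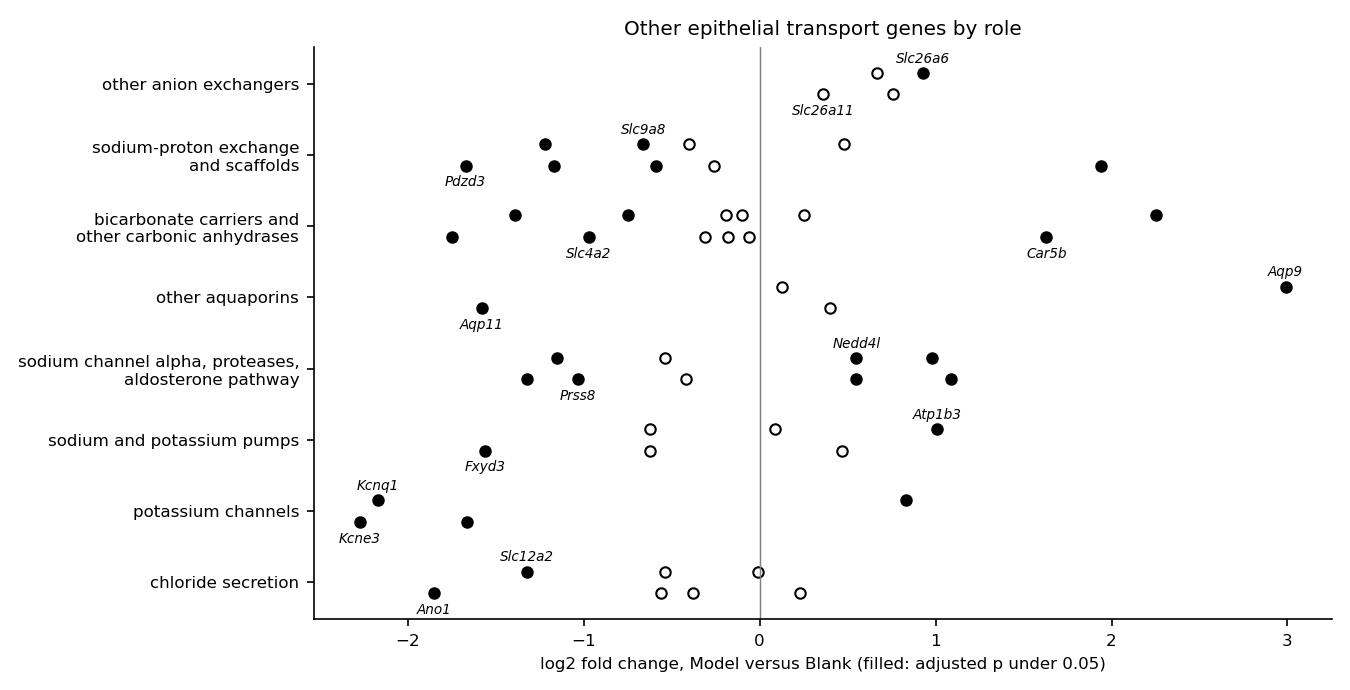
Log2 fold changes in Model versus Blank (edgeR, horizontal axis) of the 55 tested transport genes outside the 10 members, 1 row per list; filled points have an adjusted p under 0.05, and the 2 genes with the smallest p in each list are named. The 3 potassium channels and 2 chloride secretion genes that fell lie at -1.32 or lower, and Aqp9 stands furthest right at 2.99.

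The nearest patterns outside the members were sought among 10499 genes with at least 10 CPM on average, by the root mean square difference of centred log2 CPM over the 9 libraries, as a description that carries no test. Nearest to Slc26a3 were Car2 (0.252), Phgr1 (0.257) and Slc4a4 (0.268), beside a median of 1.01 over all genes, and Car2 (0.162) was also near Slc26a2, after Slc13a2 (0.161). Car2, a cytosolic carbonic anhydrase, and Slc4a4, a sodium-bicarbonate carrier, belong to the transport lists. Nearest to Cftr were Lgals12 (0.223), Hunk (0.269) and Htr4 (0.302), with a median of 1.29. Nearest to Aqp8 were Abcb1a (0.146), Ihh (0.161) and A1cf (0.277), and to Aqp4 Rasef (0.126), Epn3 (0.145) and Gipc2 (0.150). Slc9a3 lay nearest to Muc3a (0.271), B4galnt2 (0.291) and Chp2 (0.298), and among the members to Aqp4 (0.301). Closest to Scnn1g were Per1 (0.544), Apod (0.559) and Angpt1 (0.609), beside a median of 1.3 over all genes. Scnn1b lay near Pde5a (0.0977), Cgnl1 (0.0981) and Hsf2 (0.109), beside a median of 0.432. Car1 was nearest to Flnc (0.391) and Car4 to Oas1a (0.182). The most unlike pair of members was Scnn1g and Cftr, at 2.37.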

How the data were processed

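Poly-A RNA of mouse colon was sequenced in 9 libraries, 3 in each of the groups Blank, Model and CDs, which were taken from the sample titles. The tools were fastp 0.22.0, HISAT2 2.1.0 and HTSeq 0.9.1, per the submitters' processing notes, and neither the genome build nor the strand setting is given in the sources used here. The table that the authors deposited holds whole-number read counts and FPKM for every gene in each library, per the file headers, beside gene positions and lengths. The deposited FPKM values equalled count over length and library total in 100% of values (relative tolerance 1e-06), so FPKM serves for levels and counts for tests. Positions of genes are as deposited, with no build assigned.

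The quasi-likelihood F test of edgeR 4.0.16 (R 4.3.3) was run on the counts in 1 fit of all 9 libraries after filterByExpr (14921 genes) and TMM scaling, two-sided, with Benjamini-Hochberg adjustment over all genes tested and a threshold of 0.05, the meaning of "called" throughout. Fold changes carry the standard error (SE) and 95% interval of the fit. DESeq2 1.42.0 and limma 3.58.1 on log2(FPKM + 1) were alternatives, as were RLE and upper-quartile factors, scaling to 9 epithelial markers, no filter, 6-library fits, a replicate block and libraries left out. The steps were tested on simulated counts.

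The rule for named genes took all 10 members, the 2 genes with the smallest p in Model against Blank from each of 8 transport lists, and the 3 genes nearest in pattern to each member, some of which are left out of the text. Any further gene was chosen with its values in view and is so marked. Members, lists and alternatives were chosen with earlier results of these data known, and the alternatives for the other transport genes after the data were examined. Sequences are from RefSeq tables of GRCm38.p6.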

Additional observations from a re-analysis of the deposited data

How the results depend on the processing

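The 19 alternatives left the direction of every called fold change of the 10 genes as it was. Cftr (Model and CDs against Blank) and Scnn1g (Model against Blank) stayed called in all 19, Scnn1b in 18 and Aqp4 in 13. The 19 include the fits that leave Model 2 alone in Model or Blank 1 alone in Blank. Of uncalled results in Model against Blank, Slc26a3 and Aqp8 passed in 7 of 19 each, Slc26a2 in 3, Slc9a3 in 2 and Car4 in 1. Each of these counts of uncalled results includes the fit less the pancreatic libraries, which leaves Model 2 alone in Model. The count of members called lower in Model than in Blank was 2 in the fit reported, where 2920 of 14921 genes were called lower. It was 4 with DESeq2 (3269 of 14921 genes), 4 with limma on log2 FPKM (2496 of 14921) and 4 with the 6 libraries compared (3190 of 14652). When scaled to epithelial markers it was 1, where 267 of 14921 genes were called lower. Less the pancreatic libraries, or less the Blank libraries with prostate transcripts, Model or Blank is down to a single library, so no count is given. With single libraries left out the count called lower ranged from 1 to 6. It was 1 without Blank 1 (1842 of 15103 genes called lower), Blank 3 (1885 of 15140), Model 2 (1568 of 15091) or Model 3 (1478 of 15098). It was 6 without Model 1 (3316 of 15151) and 5 without CDs 1 (3561 of 15109). In CDs against Model no member was called in 18 alternatives. The remaining fit, less the pancreatic libraries, compares CDs 2 and CDs 3 with Model 2 alone, and its fold changes are given above. In CDs against Blank the count called lower was 1 in the fit reported, where 2053 of 14921 genes were called lower. It was 3 with DESeq2 (2719 of 14921 genes) and 3 with the 6 libraries (1950 of 14595). With single libraries left out it ranged from 1 to 3, with 2 without Model 1 (2229 of 15151) and 3 without CDs 3 (1883 of 15157). The fit less the pancreatic libraries, with Model 2 alone in Model, is not counted here. The cause of these moves was not tested. The fit of Cftr in Model less the pancreatic libraries was -3.33.

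The correlation of deviations between libraries of the same number was -0.008, -0.039 and -0.042 for Blank and Model. It was 0.175, 0.119 and 0.063 for Blank and CDs, and -0.268, 0.206 and -0.368 for Model and CDs. Between libraries of different numbers it ran from -0.348 to 0.472. With 3 libraries a group, these values cannot show whether libraries of the same number share a batch. A replicate block left 2 members higher and 2 lower in Model against Blank, 0 in CDs against Model and 1 lower in CDs against Blank. Of all 14921 genes it called 3456 higher and 2216 lower in Model against Blank, and 1501 lower in CDs against Blank. The block gave no call in CDs against Model. The block changed no call of a member. Among the other transport genes it ended the Model against Blank calls of Scnn1a (edgeR adjusted p = 0.0649), Nr3c2 (0.0600), Slc26a6 (0.0631), Car2 (0.0885), Car3 (0.0892) and Chp2 (0.0516).

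With 7 to 37 reads in Blank libraries, the size of the Scnn1g change rests on few reads. With 3 libraries a group, intervals of the exchangers and of Car1, Aqp8 and Scnn1g span over 2 log2 units.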
